A study of Mus musculus with 11 samples.

Results

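The 4 genes described here are Nfat5, Zfhx3, Clasp1 and Gli2, taken by name from the GENCODE vM1 annotation of mm9, which holds 22367 protein-coding genes on chromosomes 1 to 19, X and Y. The rule holds names only and uses no measured value, but the names were proposed with earlier results of these libraries known. They are names of genes in a figure of the paper that shows example regions from these libraries. Ranks of the 4 genes in the HA-Macro libraries of ES cells may follow in part from that choice. Nfat5 lies at chr8:109817370-109903417 on the plus strand and spans 86.0 kb in 16 exon blocks. Zfhx3 (chr8:111238544-111485521, plus strand) spans 247 kb in 10 exon blocks, Clasp1 (chr1:120285635-120506009, plus strand) 220.4 kb in 43 exon blocks and Gli2 (chr1:120730709-120950196, minus strand) 219 kb in 16 exon blocks. Each gene was followed in 5 kb windows from 100 kb before its start (TSS) to 100 kb after its end, in the direction of transcription.

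MacroH2A2 is a variant of histone H2A that carries a large globular macro domain behind the histone fold. It is found over broad stretches of chromatin and is known for its enrichment on the inactive X chromosome. H3.3 replaces H3 outside of DNA replication and is known for its turnover at promoters and in transcribed genes. Nfat5 is the tonicity-responsive member of the NFAT/Rel family of transcription factors. Zfhx3 is a very large transcription factor with zinc fingers and homeodomains, Clasp1 binds the growing ends of microtubules and stabilises them, and Gli2 is a zinc finger transcription factor that carries the Hedgehog signal to the nucleus.

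The promoters are shown because the bodies and the chromatin before them part at or near the gene start in several libraries. For Zfhx3 the nearest edge, as defined below, lay 10.0 kb before the start. Each run holds 250 bases before the gene start and 50 bases from it on, read 5' to 3' in the direction of transcription from the mm9 (NCBIM37) sequence, with CpG dinucleotides in capitals. The promoter of Nfat5 is at chr8:109817120-109817419, of Zfhx3 at chr8:111238294-111238593, of Clasp1 at chr1:120285385-120285684 and of Gli2 at chr1:120950147-120950446.
Nfat5: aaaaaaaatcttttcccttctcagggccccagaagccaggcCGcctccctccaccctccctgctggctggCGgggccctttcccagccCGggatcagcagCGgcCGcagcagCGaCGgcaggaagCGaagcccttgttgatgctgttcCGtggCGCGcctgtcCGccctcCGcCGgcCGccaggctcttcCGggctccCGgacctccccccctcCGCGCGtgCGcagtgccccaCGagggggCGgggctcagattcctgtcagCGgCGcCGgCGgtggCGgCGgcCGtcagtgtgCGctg
Zfhx3: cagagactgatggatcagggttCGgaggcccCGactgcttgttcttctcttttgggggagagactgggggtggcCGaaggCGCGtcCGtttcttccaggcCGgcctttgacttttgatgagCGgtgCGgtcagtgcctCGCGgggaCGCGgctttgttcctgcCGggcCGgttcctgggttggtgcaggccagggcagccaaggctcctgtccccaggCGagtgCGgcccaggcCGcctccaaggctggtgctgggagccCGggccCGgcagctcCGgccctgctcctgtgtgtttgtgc
Clasp1: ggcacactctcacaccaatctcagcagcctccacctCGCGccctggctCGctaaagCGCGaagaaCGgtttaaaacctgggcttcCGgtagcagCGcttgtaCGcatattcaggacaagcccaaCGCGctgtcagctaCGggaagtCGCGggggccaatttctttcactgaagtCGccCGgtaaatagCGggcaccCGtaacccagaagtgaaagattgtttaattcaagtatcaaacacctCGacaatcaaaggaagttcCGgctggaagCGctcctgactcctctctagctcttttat
Gli2: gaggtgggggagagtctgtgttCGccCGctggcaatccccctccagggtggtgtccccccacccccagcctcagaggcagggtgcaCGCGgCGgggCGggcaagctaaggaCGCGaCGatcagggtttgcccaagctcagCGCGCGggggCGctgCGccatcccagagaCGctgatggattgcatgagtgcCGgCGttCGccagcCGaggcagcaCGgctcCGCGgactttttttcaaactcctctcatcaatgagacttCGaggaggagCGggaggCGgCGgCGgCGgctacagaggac
The runs hold 31, 21, 21 and 28 CpG dinucleotides in this order. The median over the promoters of 22362 protein-coding genes was 11, and 30.1% of them held at least 21. The letters GGGCGG (on either strand) occur 2 times in the Nfat5 run and 1 time in that of Gli2, and not in the other two, while 43.4% of promoters hold them. G and C make up 72.0%, 67.3%, 53.3% and 67.3% of the runs, so that all 4 are CpG rich and Clasp1 is close to the median promoter of 55.0% in base composition.

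Binding was read in 11 ChIP-Seq libraries, each the single library of its condition. KH2 ES cells carry M2rtTA at ROSA26 and an HA-tagged histone under the tetracycline operator at Col1A1, so that doxycycline (Dox, 2 µg/ml) starts the synthesis of HA-H3.3 or of HA-tagged MacroH2A2 (HA-Macro). Anti-HA libraries came from HA-H3.3 ES cells after 3 and 6 hours of Dox, from ES cells with the HA-Macro gene (no Dox, or Dox for 3, 6 and 12 hours) and from HA-Macro mouse embryonic fibroblasts (MEFs) after 3, 6 and 12 hours. The MEFs were grown from chimeric embryos made with these ES cells and were selected with puromycin, and ES cells were freed from feeder MEFs by pre-plating. The strain is 129 X C57bl/6 throughout, and all cells of the HA libraries carry the transgene, the library without Dox included. Anti-MacroH2A2 libraries, which see tagged and untagged protein alike, came from ES cells and from MEFs, and each combines 2 replicates according to its label. The paper describes anti-MacroH2A2 maps of HA-Macro ES cells and HA-Macro MEFs, without Dox and after 12 hours of it. Only antibody and cell type were used for the anti-MacroH2A2 libraries, because their Dox state differs between the sources.

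The libraries held 6448310 to 19869559 distinct intervals on chromosomes 1 to 19, X and Y. Intervals are 150 bp long for HA-Macro and 400 bp long for anti-MacroH2A2 and HA-H3.3, so levels were compared only between libraries of the same antibody and tag. The HA-Macro libraries of ES cells differ among themselves in the share of distinct intervals on chromosome Y. It was 0.112% at 3 hours, near the 0.0673% to 0.102% found in ES cells with anti-MacroH2A2 and HA-H3.3, and 0.0219% to 0.0244% without Dox and at 6 and 12 hours, near the 0.0198% to 0.0226% of HA-Macro in MEFs. For anti-MacroH2A2 in MEFs it was 0.0423%. The main results that rest on the 3 hour library are also given from 6 to 12 hours or, between cell types, at 6 hours.

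All levels below are midpoints of distinct intervals per 1000000 distinct intervals (p.p.m.) and per 5 kb. Each level is a share of its own library, so lower and higher are relative to the rest of that library. The amount of bound protein was not measured. The paper reports more MacroH2A2 in MEFs than in ES cells and expects bound tag to build up over the hours of Dox. There is no HA-Macro library of MEFs without Dox. An even spread over the sequenced bases of the genome would give 1.95 p.p.m. per 5 kb. A ratio was called when its log2 value was at least 0.25 from 0 and its exact 95% binomial interval excluded 0. For a change in the ratio of body to flanks, the 95% interval was a normal approximation on the log2 scale. These intervals cover counting error only, since no condition has a second library, and no test across samples was made.

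As a share of its library, HA-Macro was lower over the bodies of all 4 genes in MEFs than in ES cells at the same hour. Over Nfat5, the ES libraries held 2.57, 3.37, 2.24 and 1.70 p.p.m. per 5 kb (no Dox, then 3, 6 and 12 hours). In MEFs it was 1.06 at 3, 6 and 12 hours alike. The MEF levels of this gene lay at 0.542 to 0.543 times the even spread, below every ES library, and the 95% intervals of the no-Dox and 6 hour libraries of ES cells overlapped. Over Zfhx3, the ES libraries held 2.03, 3.72, 3.24 and 2.82 p.p.m. per 5 kb without Dox and at 3, 6 and 12 hours, and the MEF libraries 1.87, 1.89 and 1.66 at 3, 6 and 12 hours. The order over Zfhx3 was thus 3, 6 and 12 hours in ES cells with intervals that did not overlap, then no Dox, whose interval overlapped those of the MEF libraries at 3 and 6 hours.

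Over Clasp1, the ES libraries held 2.18, 3.29, 2.24 and 2.12 p.p.m. per 5 kb in the same order, and the MEF libraries 1.31, 1.42 and 1.26. Only the 3 hour library stood above the rest of the ES libraries here, as the intervals of no Dox, 6 hours and 12 hours overlapped. Gli2 was the highest of the 4 at 3 hours in ES cells, in the MEF libraries and for total MacroH2A2, with HA-Macro at 2.25, 4.27, 2.76 and 2.60 p.p.m. per 5 kb in ES cells and 2.17, 2.16 and 2.01 in MEFs. For Gli2 the interval of the no-Dox library overlapped those of MEFs at 3 and 6 hours, and the intervals of 6 and 12 hours in ES cells overlapped each other. Total MacroH2A2 (anti-MacroH2A2) was 1.59 p.p.m. per 5 kb over Nfat5 in ES cells and 1.35 in MEFs, 2.90 and 1.90 over Zfhx3, 2.10 and 1.49 over Clasp1, and 3.12 and 2.14 over Gli2. Nfat5 and Clasp1 were the lower pair and Zfhx3 and Gli2 the higher pair in both anti-MacroH2A2 libraries and in each HA-Macro library after Dox, and their G and C content parts them in the same way, with 38.5% and 44.6% against 48.9% and 49.6%. The part of base composition in this order was not tested.

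**Figure D1:**
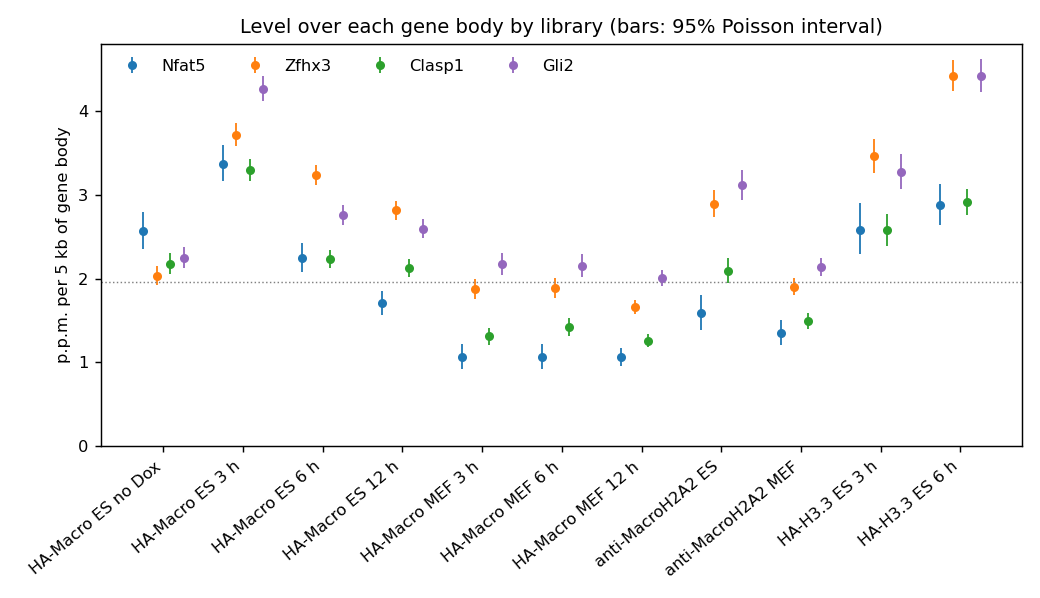
The plot shows p.p.m. per 5 kb of gene body (y axis) for Nfat5, Zfhx3, Clasp1 and Gli2 in the 11 libraries (x axis). Bars are 95% Poisson intervals and the dotted line is the even spread of 1.95. HA-Macro at 3 hours in ES cells is the highest HA-Macro library for each gene, and the MEF libraries of Nfat5 sit together at 1.06.

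In MEFs each gene body formed a trough in HA-Macro between higher flanks. At 12 hours, the Nfat5 body held 1.06 p.p.m. per 5 kb between 3.13 in the 100 kb before it and 1.98 in the 100 kb after it. Zfhx3 held 1.66 between 3.06 and 2.51, Clasp1 1.26 between 1.74 and 2.56, and Gli2 2.01 between 4.61 and 3.64. The body was thus lower than either flank for each gene. On the log2 scale, the body stood at -1.27 (95% interval -1.44 to -1.11) against both flanks for Nfat5, at -0.75 (-0.84 to -0.65) for Zfhx3, at -0.78 (-0.89 to -0.67) for Clasp1 and at -1.04 (-1.12 to -0.96) for Gli2. All 4 were called lower, as were 53.9% of 4841 protein-coding genes of at least 50 kb, with a median of -0.30 over these genes. Nfat5 lay low even among these, since 4.79% of the long genes had a deeper trough, while the share was 11.5% for Gli2, 22.3% for Clasp1 and 24.1% for Zfhx3.

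The bodies were lower than their flanks at the earlier hours too. At 3 hours in MEFs the log2 ratio of body to flanks was -1.13 for Nfat5, -0.42 for Zfhx3, -0.57 for Clasp1 and -0.89 for Gli2, and at 6 hours it was -1.29, -0.48, -0.56 and -0.83. All 4 were called lower at both times, beside 54.2% of long genes at 3 hours and 49.7% at 6 hours. Taken against the flank before the gene alone, Clasp1 was not called at either hour (-0.15, -0.35 to 0.05, and -0.24, -0.43 to -0.05), so that its trough was open on this side, while every other gene was called against each flank. Total MacroH2A2 in MEFs was lower over the 4 bodies than over both flanks, at -0.59 (-0.77 to -0.42) for Nfat5, -0.34 (-0.45 to -0.23) for Zfhx3, -0.53 (-0.65 to -0.41) for Clasp1 and -0.66 (-0.76 to -0.56) for Gli2, where 46.2% of long genes were called lower. Against single flanks, Clasp1 over the flank before it and Zfhx3 over the flank after it were both at -0.21 and were not called.

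**Figure D2:**
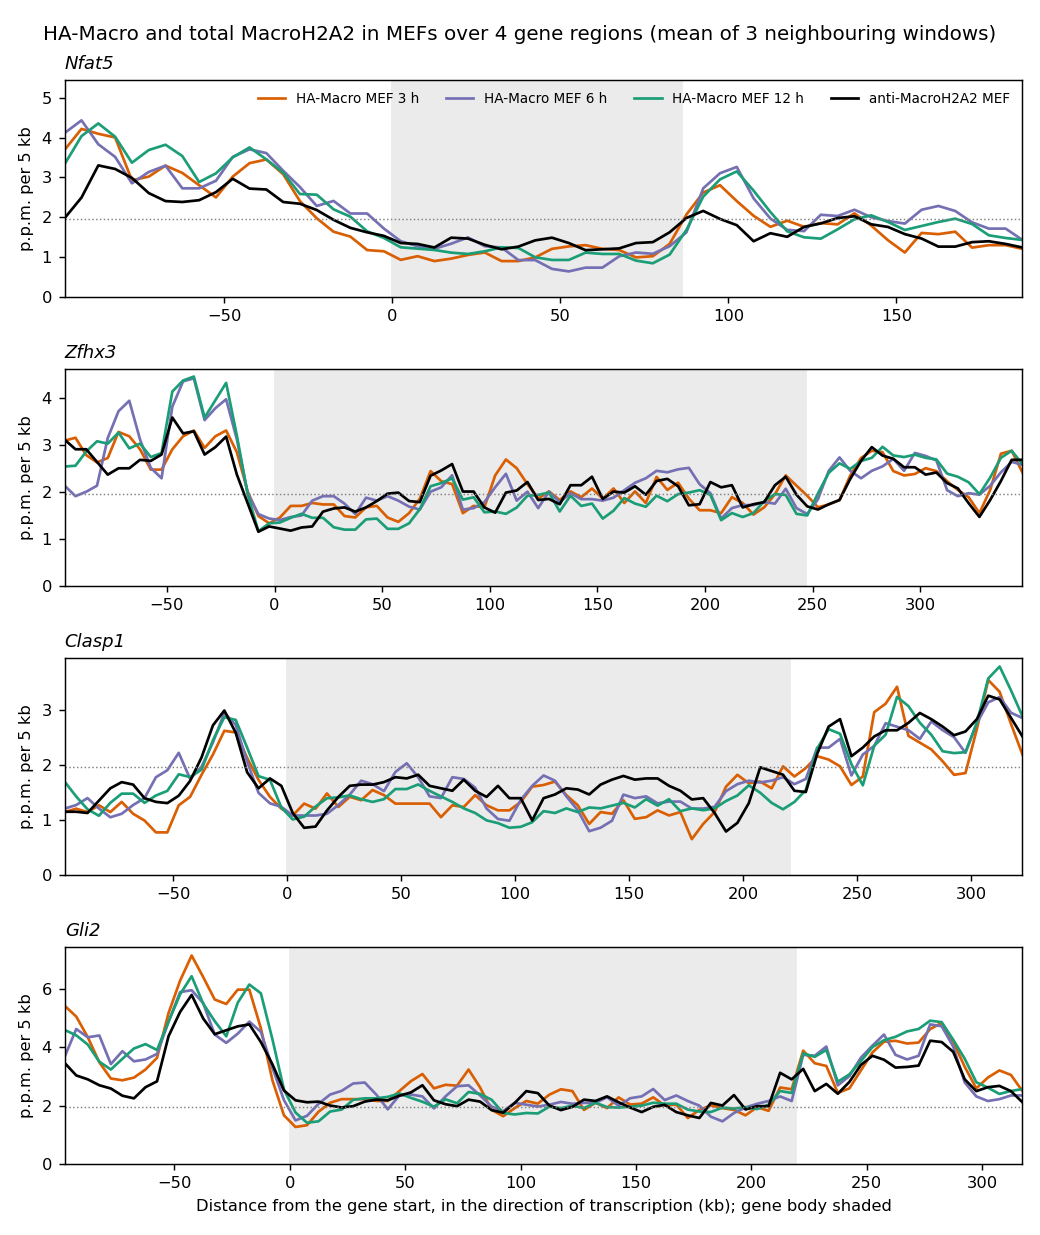
The 4 panels show p.p.m. per 5 kb (y axis, mean of 3 neighbouring windows) against the distance from the gene start in kb (x axis) for HA-Macro in MEFs at 3, 6 and 12 hours and for anti-MacroH2A2 in MEFs, with the gene body shaded and the even spread of 1.95 dotted. The body lies below both flanks at 12 hours in each panel, and the step at the start of Clasp1 is the smallest of the 4 at that hour.

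The edges of the troughs lay close to the ends of the genes. An edge was defined as a step of at least 0.5 on the log2 scale between the 50 kb before and the 50 kb after a 5 kb boundary, with an interval that excluded 0 and no larger step within 50 kb. At 12 hours in MEFs, HA-Macro fell at the start of Nfat5 itself, from 2.65 to 1.11 p.p.m. per 5 kb (log2 step -1.26). It fell 15 kb before the start of Zfhx3 (-1.50), 5 kb before that of Clasp1 (-0.74) and 5 kb before that of Gli2 (-1.50). At the other end it rose 1.05 kb before the end of Nfat5 (1.15), 8.02 kb past that of Zfhx3 (0.76), 9.62 kb past that of Clasp1 (0.91) and 5.51 kb past that of Gli2 (0.97). The distances are known to no better than the 5 kb of the windows. Beyond Gli2 the raised stretch ended in a further fall of -0.82 at 75.5 kb past the gene end.

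A fall within 15 kb of the start was found in 4 of 4 genes and a rise within 15 kb of the end in 4 of 4, against 32.1% and 26.8% of long genes. The distance of 15 kb was chosen after the positions had been seen. At 6 hours in MEFs these counts were 3 and 4, beside 27.9% and 22.9% of long genes, and at 3 hours they were 3 and 2, beside 30.7% and 24.8%. By the edge rule Clasp1 was the gene without a fall near its start at both hours. It had a rise 70.0 kb before the start at 6 hours and 45.0 kb before it at 3 hours. The step at its start itself was -0.44 (-0.76 to -0.13) at 3 hours and -0.54 (-0.86 to -0.22) at 6 hours. The 6 hour step was not an edge because a larger step lay within 50 kb. At 3 hours Zfhx3 had no edge near its end, where the step was 0.31 (0.03 to 0.59). The rise of Clasp1 lay 30.4 kb before its end, and the step at the end itself was 0.80 (0.50 to 1.10). Total MacroH2A2 in MEFs fell within 15 kb of the start of all 4 genes (26.1% of long genes), with steps of -0.83 for Nfat5, -1.14 for Zfhx3, -0.64 for Clasp1 and -1.16 for Gli2. It rose within 15 kb of the end for Clasp1 (0.92) and Gli2 (0.69), where 20.7% of long genes did so, and for Zfhx3 the rise of 0.52 lay 23.0 kb past the end.

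In ES cells the profile of HA-Macro at 3 hours was of the opposite form for Zfhx3 and Gli2. The Zfhx3 body held 3.72 p.p.m. per 5 kb between 2.09 before it and 1.63 after it, and the Gli2 body 4.27 between 2.89 and 1.90. The log2 ratio of body to flanks was 1.00 (0.91 to 1.10) for Zfhx3 and 0.83 (0.74 to 0.92) for Gli2, and both were called higher, as were 35.5% of long genes. Of the long genes, 98.4% had a lower ratio than Zfhx3 and 94.7% a lower ratio than Gli2. Nfat5 (0.16, 0.04 to 0.27) and Clasp1 (0.13, 0.04 to 0.21) were not called against both flanks. Nfat5 held 3.37 with 2.31 before and 3.74 after it, and Clasp1 3.29 with 2.70 before and 3.33 after it. Both bodies were called higher than the flank before them (0.55 for Nfat5 and 0.29 for Clasp1) and were not called against the flank after them (-0.15 and -0.01). Other protein-coding genes lie in the flanks of these 2 genes, namely Nqo1, Nob1, Wwp2 and Rps26-ps1 at Nfat5, Tsn and Mki67ip before Clasp1 and Tcfcp2l1 after it, and none lies in the flanks of Zfhx3 and Gli2.

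At 6 and 12 hours in ES cells no body stood above its flanks taken as a pair. At 6 hours the log2 ratio to both flanks was -0.55 for Nfat5, -0.04 for Zfhx3, -0.17 for Clasp1 and -0.16 for Gli2, and only Nfat5 was called lower (25.8% of long genes). At 12 hours it was -0.79 (-0.93 to -0.65) for Nfat5, -0.22 (-0.30 to -0.14) for Zfhx3, -0.250 (-0.35 to -0.15) for Clasp1 and -0.45 (-0.54 to -0.37) for Gli2. Nfat5 and Gli2 were called lower at this hour, beside 35.1% of long genes, while Clasp1 missed the limit of 0.25 by its last digits. Zfhx3 was lower than the flank before it at both hours (-0.38 and -0.54) but higher than the flank after it at 6 hours (0.40, 0.29 to 0.52), with 0.20 (0.09 to 0.31) at 12 hours. Without Dox the ratios were 0.20, -0.05, 0.07 and 0.15 in the order Nfat5, Zfhx3, Clasp1, Gli2, and none was called, beside 7.40% of long genes called in either direction.

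Between 3 and 12 hours in ES cells the ratio of body to flanks changed by -0.94 for Nfat5, -1.22 for Zfhx3, -0.38 for Clasp1 and -1.28 for Gli2, all called lower, as were 44.2% of long genes. With 6 hours standing in for 3 hours, only Gli2 was called, beside 13.6% of long genes called lower, so that the change rests on the 3 hour library. Total MacroH2A2 in ES cells did not show 1 form for the 4 genes. Its log2 ratio of body to flanks was -0.53 for Nfat5, which was called lower beside 24.8% of long genes, 0.27 for Zfhx3, which was called higher beside 13.6%, and -0.04 for both Clasp1 and Gli2. Zfhx3 was at 0.57 against the flank after it, and at 0.03 and not called against the flank before it. From ES cells to MEFs the ratio in total MacroH2A2 changed by -0.61 for Zfhx3, -0.49 for Clasp1 and -0.61 for Gli2, all called lower (32.3% of long genes), and by -0.06 (-0.33 to 0.21) for Nfat5.

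**Figure D3:**
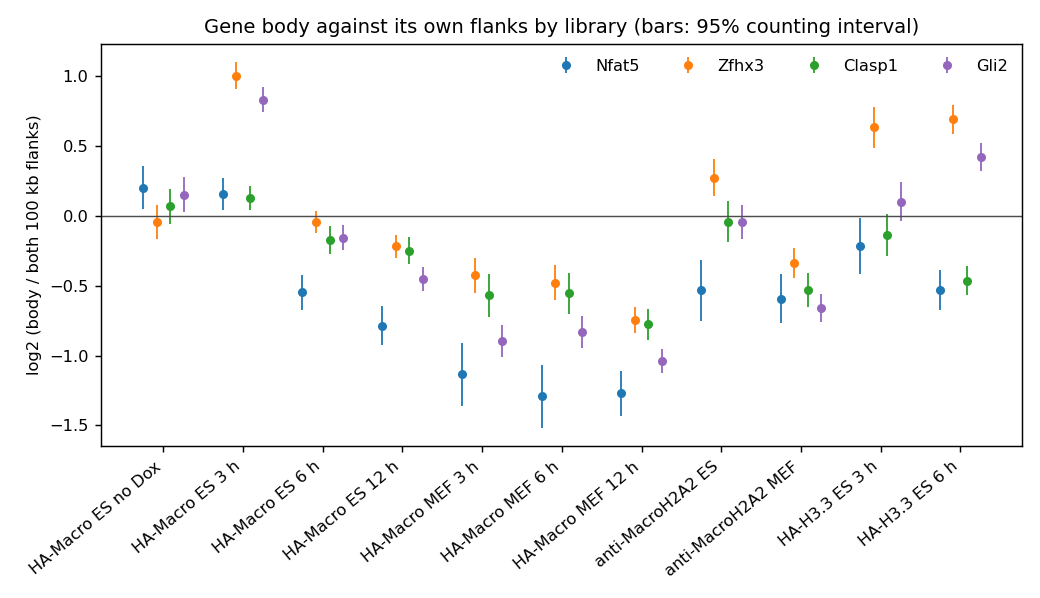
The plot shows the log2 ratio of the gene body to its flanks of 100 kb on both sides (y axis) for the 4 genes in the 11 libraries (x axis), with 95% counting intervals as bars. Zfhx3 and Gli2 stand at 1.00 and 0.83 in HA-Macro at 3 hours in ES cells, and all 4 genes lie under 0 in every MEF library.

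The step between the 50 kb before and after the gene start was positive at 3 hours in ES cells and negative at 12 hours for each gene. It was 0.48, 0.71, 0.66 and 0.32 on the log2 scale at 3 hours for Nfat5, Zfhx3, Clasp1 and Gli2, -0.62, -0.43, -0.20 and -0.32 at 6 hours and -0.67, -0.55, -0.40 and -0.47 at 12 hours. All intervals excluded 0 but that of Clasp1 at 6 hours. The share of long genes with this change of sign was not computed. By the rule for edges, at 3 hours HA-Macro rose within 15 kb of the start of 3 of 4 genes (23.0% of long genes), by 0.55 on the log2 scale for Nfat5, 0.78 for Zfhx3 and 0.74 for Clasp1, and for Gli2 the rise of 0.76 lay 35.0 kb before the start. It fell close to the end of Zfhx3 (-1.26) and Gli2 (-1.33), beside 17.2% of long genes. At 6 hours Nfat5 had a fall at its start (-0.62, beside 11.3% of long genes) and a rise close to its end (0.58, beside 11.6%), Zfhx3 kept a fall close to its end (-0.78, beside 3.90%), and Gli2 had no edge. At 12 hours HA-Macro fell within 15 kb of the start of Nfat5 (-0.67) and Gli2 (-0.52), beside 18.2% of long genes, and rose close to the end of Nfat5 alone (0.75), beside 16.4%. The fall of Zfhx3 at 12 hours (-0.78) lay 25.0 kb before the start, and Clasp1 had a rise of 0.76 at 50.0 kb before its start. Taking any edge in the region, the no-Dox library had none in the 4 genes (16.4% of long genes had 1 or more), the 6 hour library in ES cells had edges in 3 of them (75.7%), and each of the other 9 libraries had edges in 4. The matching shares of long genes were 85.5% at 3 hours and 78.7% at 12 hours in ES cells, 96.2%, 95.7% and 95.3% at 3, 6 and 12 hours in MEFs, 85.9% and 93.3% for anti-MacroH2A2 in ES cells and MEFs, and 92.8% and 98.7% for HA-H3.3 at 3 and 6 hours. The presence of an edge is therefore common to long genes in these libraries. The positions are given as a description only, since the distance of 15 kb was chosen after they had been seen.

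**Figure D4:**
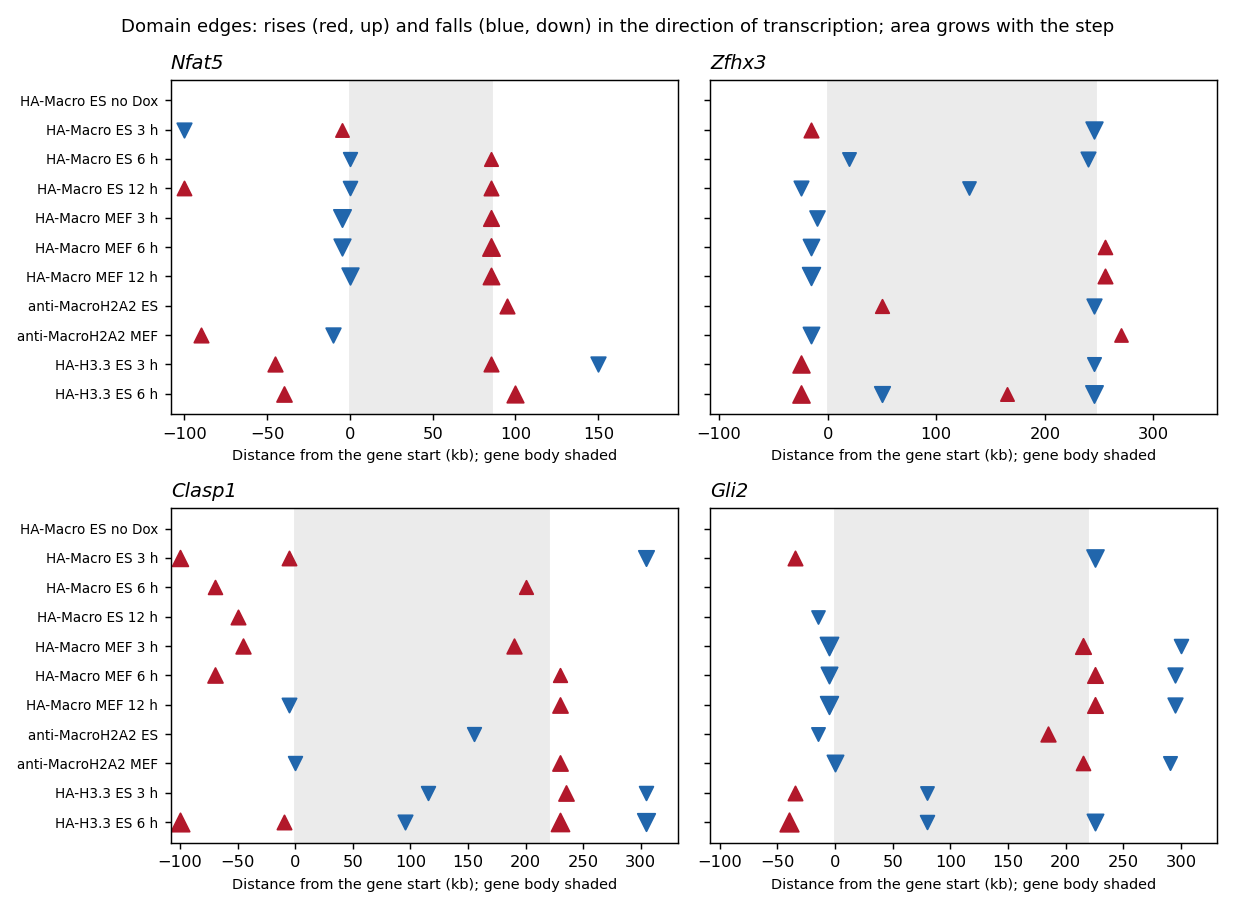
Each panel shows the edges of 1 gene by their distance from the gene start in kb (x axis) and library (y axis), with rises as red triangles pointing up, falls as blue triangles pointing down and the area growing with the log2 step. At 12 hours in MEFs each gene has a fall near its start and a rise near its end. By the edge rule Clasp1 has no fall within 15 kb of its start at 3 and 6 hours. Zfhx3 and Clasp1 have no rise within 15 kb of the end at 3 hours. A step within 50 kb of a larger step is not drawn. The row without Dox is empty.

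Over the whole bodies, HA-Macro in ES cells was lower at 12 than at 3 hours in all 4 genes. The log2 ratio was -0.99 (-1.14 to -0.83) for Nfat5, -0.40 (-0.48 to -0.32) for Zfhx3, -0.63 (-0.72 to -0.54) for Clasp1 and -0.72 (-0.80 to -0.63) for Gli2. All 4 were called lower, as were 43.9% of 20180 protein-coding genes, and the median gene stood at -0.25. Of 4841 long genes 12.2% lay below Nfat5 and 39.1% below Zfhx3. The lower level was spread along the genes. With each body cut into 4 equal parts, all 16 parts were called lower at 12 hours. They ranged from -0.27 in the last part of Zfhx3 to -1.17 in the first part of Nfat5. The parts share the same libraries, and no share over parts of other genes was computed. Clasp1 was least changed in its last part (-0.41), and the parts of Gli2 differed little, from -0.69 to -0.74. From 6 to 12 hours 3 of the 16 parts were called lower, 2 of Nfat5 and 1 of Zfhx3.

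In the flanks the same comparison went the other way for Zfhx3 and Gli2. This may follow in part from the choice of the genes by a figure on blocks of slow turnover, and is not an independent result. Before Zfhx3 HA-Macro was 2.09 p.p.m. per 5 kb at 3 hours, the same as without Dox, and 4.23 and 4.10 at 6 and 12 hours (log2 ratio of 12 to 3 hours 0.97, 0.84 to 1.11). After Zfhx3 the ratio was 0.59, before Gli2 0.33 and after Gli2 0.87, all called higher. For Nfat5 the flank before the gene was higher at 12 hours (0.51) and the flank after it, with Nob1 and Wwp2, was lower (-0.54). Before Clasp1 the flank was lower (-0.36), and after it the ratio was -0.18. From 6 to 12 hours the flank after Gli2 was the 1 flank called (0.40, 0.27 to 0.52), and the flank before Zfhx3 was at -0.04. Counted by 5 kb windows with a log2 limit of 0.5, 15 of 18 body windows of Nfat5, 15 of 50 of Zfhx3, 23 of 45 of Clasp1 and 33 of 44 of Gli2 were lower at 12 hours. The last window of a body may run past its end. Higher windows were 2 in the body of Zfhx3 and 0 in the other bodies, whereas 14 of 20 before Zfhx3, 9 of 20 after it, 9 of 20 before Gli2, 13 of 20 after it and 10 of 20 before Nfat5 were higher and 0 lower. After Nfat5 0 of 20 were higher and 9 lower, before Clasp1 3 were higher and 9 lower, and after Clasp1 5 each. Over all windows of chromosomes 1 to 19 and X, 11.3% were lower and 9.75% higher. Fewer windows were called between 6 and 12 hours, when for Nfat5, Zfhx3, Clasp1 and Gli2 4 of 18, 5 of 50, 1 of 45 and 2 of 44 body windows were lower and 0, 1, 1 and 1 higher. Before Zfhx3 1 of 20 was higher and 3 lower, and after Gli2 4 of 20 were higher, beside 2.88% of all windows lower and 2.69% higher.

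The 2 higher windows within Zfhx3 stood alone. Centred 122.5 kb from the start, the first held 2.20, 3.86, 4.77 and 7.35 p.p.m. per 5 kb (no Dox, then 3, 6 and 12 hours), while the windows on either side of it held 3.28 and 2.71 at 12 hours. The second, centred at 197.5 kb, held 2.20, 4.88, 9.13 and 6.95, between windows of 2.15 and 1.86 at 12 hours. In MEFs these windows held 2.42 and 2.97 at 12 hours. Both were picked out after their values had been seen.

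**Figure D5:**
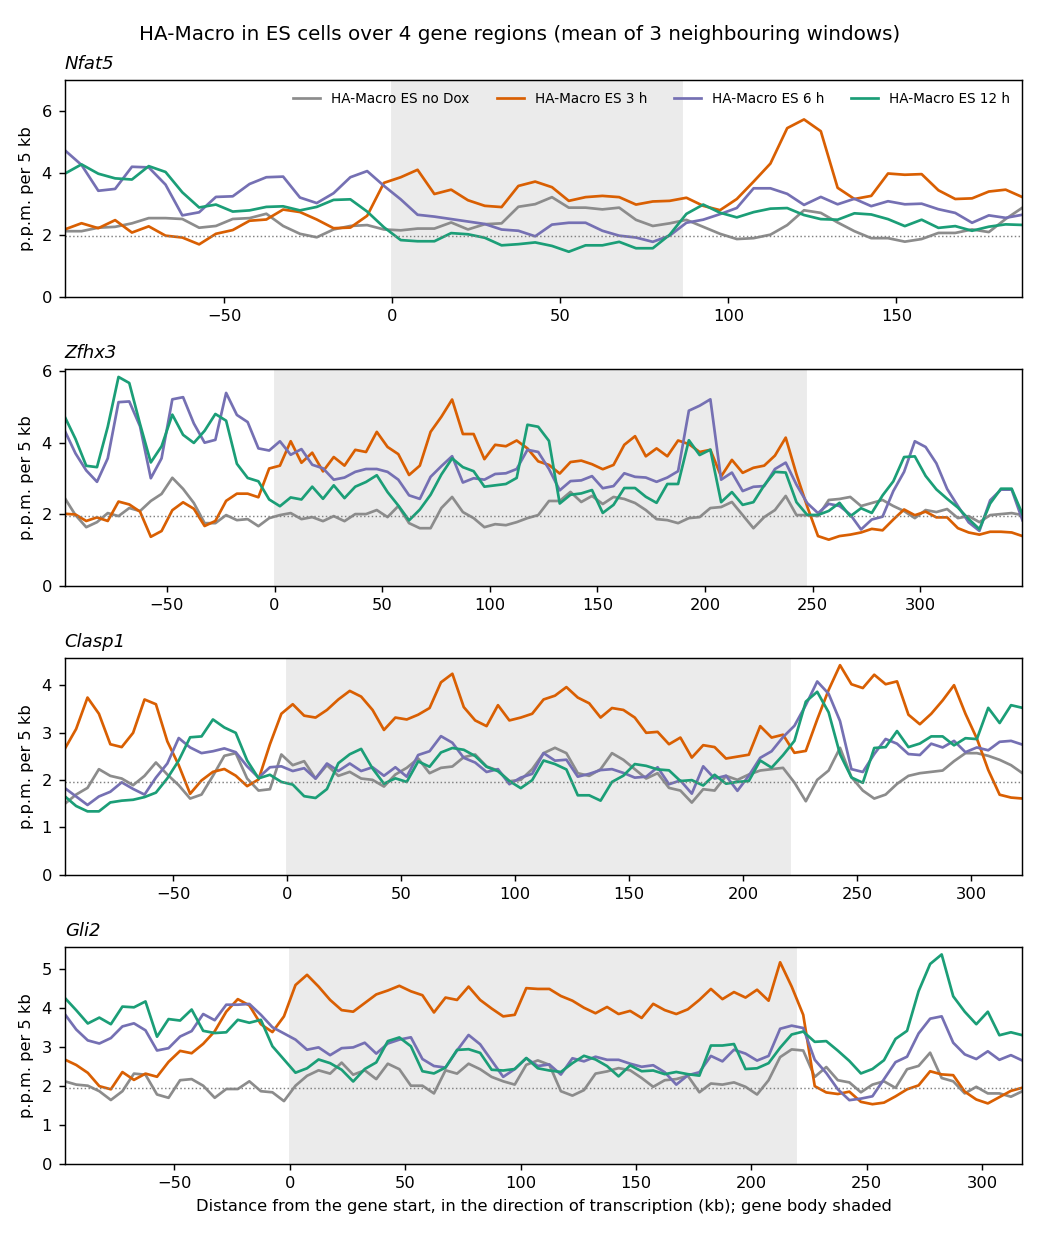
The 4 panels show p.p.m. per 5 kb (y axis, mean of 3 neighbouring windows) against the distance from the gene start in kb (x axis) for HA-Macro in ES cells without Dox and at 3, 6 and 12 hours, with the body shaded and the even spread of 1.95 dotted. At 3 hours the level drops at the end of Zfhx3 and Gli2 and rises near the start of Zfhx3 and 35.0 kb before that of Gli2, and the peak after Nfat5 at 3 hours lies over Nob1.

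The result by hour depends on the 3 hour library. From 6 to 12 hours the log2 ratio was -0.40 (-0.57 to -0.23) for Nfat5, which was called lower beside 10.9% of genes, and -0.20, -0.07 and -0.09 for Zfhx3, Clasp1 and Gli2, which were not. From 3 to 6 hours it was -0.59 for Nfat5, -0.20 for Zfhx3, -0.56 for Clasp1 and -0.63 for Gli2, with all but Zfhx3 called lower (38.9% of genes). Nfat5 was thus called lower in both intervals, and Zfhx3 was below the fold limit of 0.25 in each, with intervals that excluded 0. Against the library without Dox, the 3 hour library was higher over Nfat5 by 0.40, over Zfhx3 by 0.87, over Clasp1 by 0.60 and over Gli2 by 0.92 on the log2 scale, and 50.6% of genes were called higher. At 12 hours against no Dox, Zfhx3 was higher (0.47, 24.5% of genes) and Nfat5 lower (-0.59, 14.7% of genes), while Clasp1 (-0.04) and Gli2 (0.21) were not called. After division by windows of the same G and C content Zfhx3 was at -0.09 and was not called, while Clasp1 (-0.35) and Gli2 (-0.37) were then called lower, with the direction of Gli2 turned. The comparisons in this paragraph share libraries and are not independent of each other.

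In MEFs no body was called between 3 and 12 hours. The log2 ratio was 0.00 (-0.25 to 0.26) for Nfat5, -0.17 (-0.29 to -0.06) for Zfhx3, -0.06 (-0.20 to 0.09) for Clasp1 and -0.12 (-0.23 to 0.00) for Gli2, and 6.72% of 19598 genes were called in either direction. The intervals allow a change of up to 0.26 for Nfat5, which had 197 midpoints at 3 hours and 362 at 12 hours. Against its flanks, Zfhx3 was lower at 12 than at 3 hours by a log2 change of -0.32 (5.58% of long genes called lower), and the other 3 genes, at -0.14 to -0.21, were not called.

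Between cell types, HA-Macro was lower in MEFs over all 4 bodies at each hour. At 3 hours the log2 ratio of MEF to ES was -1.67 for Nfat5, -0.99 for Zfhx3, -1.33 for Clasp1 and -0.97 for Gli2 (55.9% of genes called lower). At 6 hours the ratios were -1.08, -0.78, -0.66 and -0.36 in the same order (47.8%), and at 12 hours -0.69 (-0.88 to -0.49), -0.76 (-0.85 to -0.67), -0.76 (-0.87 to -0.65) and -0.37 (-0.47 to -0.28), where 49.9% of genes were called lower. The median gene at 12 hours was at -0.42, so that Gli2 lay near the middle of all genes, and 5.83% and 6.22% of long genes lay below Zfhx3 and Clasp1. At 6 hours 0.289% of long genes lay below Nfat5. The difference was again spread along the bodies, as all 16 parts were called lower in MEFs at 12 hours, from -0.28 in Gli2 to -0.95 in Clasp1. No share over parts of other genes was computed here either. Lower windows were 6 of 18 for Nfat5, 29 of 50 for Zfhx3, 21 of 45 for Clasp1 and 10 of 44 for Gli2, beside 13.6% of all windows. No body window of the 4 genes was higher in MEFs, beside 13.3% of all windows.

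The flanks differed less than the bodies between the cell types at 12 hours, but not every flank did at 3 hours. At 12 hours the flank before Gli2 was higher in MEFs (0.34) and that after it was at 0.07, with 4.61 and 3.64 p.p.m. per 5 kb in MEFs beside 3.65 and 3.46 in ES cells. The flank after Zfhx3 was at 0.04 and that before Nfat5 at -0.07, neither of them called. The flanks before Zfhx3 (-0.42), after Nfat5 (-0.38) and before Clasp1 (-0.27) were lower in MEFs. After Clasp1 the median 5 kb window was at -0.17. No share over flanks of other genes was computed. At 3 hours the median window before and after the gene was at 0.66 and 0.97 for Gli2 and at 0.58 and 0.60 for Zfhx3. It was at 0.28 and -1.35 for Nfat5 and at -0.84 and -0.50 for Clasp1. The median body window of Gli2 was at -0.96 at 3 hours. Total MacroH2A2 was lower in MEFs over the bodies of Zfhx3 (-0.61, -0.72 to -0.49), Clasp1 (-0.49, -0.63 to -0.36) and Gli2 (-0.54, -0.66 to -0.43), and 45.7% of genes were called lower. Over Nfat5 the ratio was -0.23 (-0.47 to 0.02) and was not called. After division by windows of the same G and C content, Zfhx3 (-0.22) and Gli2 (-0.15) were no longer called, and Nfat5 (-0.30) was.

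Clasp1, Tcfcp2l1 and Gli2 follow one another on chromosome 1, with a gap on either side of Tcfcp2l1. Tcfcp2l1, a transcription factor of the pluripotency network, held 2.08, 3.90, 2.59 and 2.59 p.p.m. per 5 kb in ES cells without Dox and at 3, 6 and 12 hours. The gap between Tcfcp2l1 and the end of Gli2 held 2.18, 1.96, 2.68 and 3.39. From 3 to 12 hours the log2 ratio was thus -0.59 over Tcfcp2l1 and 0.79 over the gap, beside -0.63 over Clasp1 and -0.72 over Gli2. In MEFs the gap held 3.20, 3.12 and 3.34 at 3, 6 and 12 hours, whereas Tcfcp2l1 held 2.31, 2.44 and 2.48. The shorter gap of 18.5 kb between Clasp1 and Tcfcp2l1 held 1.90, 2.93, 3.95 and 3.78 in ES cells (no Dox, then 3, 6 and 12 hours), with a log2 ratio of 12 to 3 hours of 0.37 (0.09 to 0.65) that was called higher and of 12 to 6 hours of -0.06 that was not. In MEFs it held 2.20, 2.11 and 1.90, below Tcfcp2l1, so that the gaps on the 2 sides of this gene differed in MEFs. Other neighbours were lower at 12 than at 3 hours in ES cells, with -1.56 for Tsn and -1.17 for Mki67ip before Clasp1, and -1.26 for Nob1 (a ribosome assembly nuclease) and -0.59 for Wwp2 (a ubiquitin ligase) after Nfat5. Nqo1, the quinone reductase next to the end of Nfat5, was at -0.26 (-0.61 to 0.08) and was not called. Of all protein-coding genes 43.9% were called lower and 16.0% higher from 3 to 12 hours, and no share over other gaps was computed. From 6 to 12 hours the gap between Tcfcp2l1 and Gli2 was higher by 0.34, Tcfcp2l1 was at 0.00, and the other 5 neighbours, at -0.33 to 0.18, were not called. Of all genes 10.9% were called lower and 3.08% higher between these hours.

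HA-H3.3 gave the level of a second histone over the same genes. At 3 and 6 hours of Dox it was 2.59 and 2.88 p.p.m. per 5 kb over Nfat5, 3.46 and 4.42 over Zfhx3, 2.58 and 2.92 over Clasp1 and 3.27 and 4.42 over Gli2. The log2 ratio of 6 to 3 hours was 0.15 for Nfat5, 0.36 for Zfhx3, 0.18 for Clasp1 and 0.43 for Gli2, and Zfhx3 and Gli2 were called higher, beside 29.1% of genes. After division by windows of the same G and C content neither was called (0.01 and 0.09). At 6 hours the bodies of Zfhx3 (0.69) and Gli2 (0.42) stood above their flanks taken as a pair, beside 28.6% of long genes called higher. Those of Nfat5 (-0.53) and Clasp1 (-0.46) stood below the pair, beside 33.6% called lower. Against the flank before the gene alone, Zfhx3 (0.16), Gli2 (-0.03) and Clasp1 (0.04) were not called at 6 hours. Against the flank after the gene they were at 1.55, 1.07 and -0.83, all called. Nfat5 was called lower against each flank. Against the pair at 3 hours only Zfhx3 was called (0.63, beside 21.8% of long genes called higher), and Gli2 (0.10), Nfat5 (-0.21) and Clasp1 (-0.14) were not. The highest single window of the flanks at 6 hours held 8.83 p.p.m. per 5 kb for Nfat5 (centred 112.5 kb from the start, past its end), 11.4 for Zfhx3 (17.5 kb before the start), 12.6 for Clasp1 (237.5 kb from the start, at the start of Tcfcp2l1) and 14.0 for Gli2 (22.5 kb before the start).

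At the promoters, counted within 600 bp of the gene start, the depth allows only coarse statements. HA-H3.3 gave 26 and 57 midpoints at 3 and 6 hours at the Nfat5 promoter, 32 and 57 at Zfhx3, 10 and 37 at Clasp1 and 12 and 39 at Gli2. The 3 hour levels of Nfat5 and Zfhx3 were above those of 96.6% and 98.9% of promoters, and the increase to 6 hours was called at Clasp1 (log2 ratio 1.16, 0.13 to 2.34) and Gli2 (0.98, 0.01 to 2.05), beside 28.4% of promoters. HA-Macro in ES cells gave 10, 22, 17 and 7 midpoints at Nfat5 without Dox and at 3, 6 and 12 hours, 10, 30, 20 and 17 at Zfhx3, 3, 11, 4 and 8 at Clasp1 and 9, 22, 10 and 11 at Gli2. The ratio of 12 to 3 hours was called lower at Nfat5 (-1.75, -3.22 to -0.47) and Zfhx3 (-0.91, -1.86 to -0.01), as at 31.7% of promoters, and was -1.09 at Gli2 with an interval that held 0. Clasp1 fell short of the 20 midpoints over both libraries that a call needs. From 6 to 12 hours Nfat5 was called lower (-1.36, beside 7.31% of promoters), Zfhx3 (-0.31) and Gli2 (0.06) were not, and Clasp1 had too few midpoints for a call. In MEFs the HA-Macro counts were 3, 2 and 6 at Nfat5, 5, 5 and 11 at Zfhx3, 3, 0 and 2 at Clasp1 and 1, 3 and 5 at Gli2, at 3, 6 and 12 hours. At 3 hours they were called lower than in ES cells at Nfat5 (-2.26), Zfhx3 (-1.97) and Gli2 (-3.84), beside 41.7% of promoters. At 6 hours only Zfhx3 had enough midpoints for a call, and at -1.33 (-3.10 to 0.13) it was not called, beside 18.6% of promoters called lower. Total MacroH2A2 went from 15 to 7 midpoints at Nfat5 and from 21 to 10 at Zfhx3 between ES cells and MEFs, both called lower beside 35.4% of promoters. At Gli2 the 16 and 15 midpoints were 1.88 and 1.01 p.p.m. in libraries of unequal depth, a log2 ratio of -0.90 (-2.01 to 0.22) that was not called, and Clasp1, with 5 and 2, had too few for a call.

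Exons held more than introns in at least 1 library of each gene, and most often in Zfhx3 and Gli2. In Gli2 the log2 ratio was above 0 in all 11 libraries, with an interval that included 0 in MEFs at 6 hours and with 0.87 already in the library without Dox, 0.82 to 1.03 in the ES libraries after Dox, 0.45 to 1.03 in MEFs and 2.00 (1.73 to 2.26) for total MacroH2A2 in ES cells. In Clasp1 it was 1.01 (0.59 to 1.41) for total MacroH2A2 in ES cells, 0.59 at both 6 and 12 hours of HA-Macro in ES cells and 0.95 (0.46 to 1.40) at 3 hours in MEFs, with intervals that included 0 without Dox, at 3 hours in ES cells and at 6 and 12 hours in MEFs. In Zfhx3 it was 0.64 without Dox, 0.45 to 0.62 in the ES libraries after Dox, 0.66 to 0.81 in MEFs and 1.52 (1.29 to 1.73) for total MacroH2A2 in ES cells. Nfat5, whose exons take 21.4% of its body, showed no such excess in HA-Macro, with 0.01 without Dox and -0.37 (-0.72 to -0.04) at 12 hours in ES cells, while HA-H3.3 at 6 hours was at 0.51 (0.23 to 0.79). The excess of exons in Zfhx3 and Gli2 was thus already present in the library without Dox. Along the 5 kb windows, the log2 ratio of 12 to 3 hours in ES cells went with G and C content in opposite ways in the 4 regions, with a Pearson r of 0.41 over 58 windows for Nfat5, 0.40 over 85 for Clasp1, -0.61 over 90 for Zfhx3 and -0.50 over 84 for Gli2. The windows of a region share their libraries, and neighbouring windows are alike in base composition. Over all 317 windows r was -0.02. Between 6 and 12 hours the values of the 4 regions, in this order, were 0.29, 0.22, -0.31 and -0.31.

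The genes most like each of the 4 were sought among protein-coding genes of at least 50 kb more than 1 Mb away, by the root mean square difference of log2 body levels over the 11 libraries, each centred on its median. For Nfat5 these were Pcm1 (0.09), Zcchc11 (0.10) and Birc6 (0.11), where the median gene was at 0.63. For Zfhx3 they were Dlg5 (0.07), Trerf1 (0.08) and Smurf1 (0.11), for Clasp1 9130011E15Rik (0.04), Txndc11 (0.07) and Osbpl11 (0.07), and for Gli2 Ccdc12 (0.09), Map3k4 (0.11) and Mad1l1 (0.12). Among the 4 genes themselves, Zfhx3 and Gli2 differed by 0.17 and Clasp1 and Nfat5 by 0.25, while Nfat5 and Gli2 differed by 0.71, which is more than the median gene.

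Other genes of the pathways around the 4 were read from lists that were set with results of these data known. Of the Hedgehog pathway 20 of 21 listed genes could be measured, and from 3 to 12 hours in ES cells 9 bodies were called lower and 3 higher, with a median of -0.35. The lowest were the transcription factor Gli1 (-0.96) and Spop (-0.90), an adaptor of a ubiquitin ligase, and the highest Scube2 (0.61) and Hhat (0.43), which act in the release and acylation of the ligand. The receptor Ptch1 was at -0.87, its partner Smo at 0.28, and Gli3 at -0.48. Of 13 genes of the NFAT family and of tonicity targets 9 were lower and 2 higher (median -0.80), with the amino acid transporter Slc38a2 (-1.50) and aldose reductase Akr1b3 (-1.25) lowest and the betaine transporter Slc6a12 (0.64) and Nfatc2 (0.34) highest. Aldose reductase makes the osmolyte sorbitol, and the betaine transporter takes up another.

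Of 11 zinc finger homeobox genes 7 were lower and 1 higher (median -0.40), from Adnp (-1.14) and Zfhx2 (-0.997) to Zhx2 (0.46), with Zeb2 at 0.18. Of 22 genes of microtubule plus ends 15 were lower and 0 higher (median -0.69), with Pafah1b1 (-1.22) and the polymerase Ckap5 (-1.17) lowest and Phldb2 (0.25) and Clip3 (0.14) highest, and Clasp2, the close relative of Clasp1, at -0.85. The background for these counts is the 43.9% of genes called lower and the 16.0% called higher, with a median of -0.25. Fewer list genes were called between 6 and 12 hours, with 5 of 20 Hedgehog genes, 4 of 13 of the NFAT list, 1 of 11 zinc finger homeobox genes and 2 of 22 plus-end genes lower and 1 Hedgehog gene higher, beside 10.9% of genes lower and 3.08% higher. Between MEFs and ES cells at 12 hours 10 of 20 Hedgehog genes, 7 of 13 of the NFAT list, 11 of 11 zinc finger homeobox genes and 17 of 22 plus-end genes were lower in MEFs, beside 49.9% of all genes. Higher in MEFs were 6, 3, 0 and 1 of them, beside 9.89% of all genes, so that the Hedgehog and NFAT lists went both ways. Between 3 and 12 hours in MEFs 0, 0, 0 and 1 genes of these lists were called, the 1 as lower, beside 3.54% of all genes called lower and 3.18% higher. Each list holds 1 of the 4 genes, and all of these counts include it.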

How the data were processed

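ChIP-Seq was measured in 11 libraries, 1 per condition, grouped by their labels. The authors mapped the reads to mm9 with Bowtie 1.0 (version from the submitters' processing notes), kept 1 random location for reads with several, extended the reads and deposited the mapped intervals; the deposited files hold no strand, count or other value (unit: other). From these, repeated intervals were removed (3.27% to 6.00% in HA-Macro libraries, 0.464% to 0.694% in the others), midpoints were counted per segment and scaled to distinct intervals on chromosomes 1 to 19, X and Y. Genes came from GENCODE vM1 and promoters from NCBIM37. Calls needed at least 20 midpoints over both libraries. Confidence intervals are exact binomial (ratios), Poisson (levels) or a normal approximation (changes in the ratio of body to flanks) at 95%. PCR copies are not independent molecules, so these intervals cover counting error only. The 4 genes and the lists were chosen with earlier results of these data known. All 4 genes are named, with neighbours, the 3 most alike genes and the 2 highest and 2 lowest of each list. A few further genes and windows were named after their values were seen. Alternatives were the fold, midpoint and length minimum, all intervals, base composition, division by the no-Dox library, other totals, windows and flanks. Python 3.11.15, numpy 2.4.6, scipy 1.17.1, pandas 2.3.3 and matplotlib 3.10.9 were used, and scripts were tested on simulated data.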

Additional observations from a re-analysis of the deposited data

Results flagged for a closer look

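At 3 hours of Dox, 4 measures had opposite signs in ES cells and MEFs and were called in both, with a log2 limit of 0.25 for the ratio of body to flanks and of 0.5 for a step. The body of Zfhx3 stood at 1.00 on the log2 scale against its flanks in ES cells and at -0.42 in MEFs, a difference of -1.43, and the body of Gli2 at 0.83 and -0.89, a difference of -1.73. The step at the start of Zfhx3 was 0.71 in ES cells and -0.67 in MEFs, a difference of -1.38. The step at the end of Gli2 was -1.30 in ES cells and 0.72 in MEFs, a difference of 2.03. With 1 library per cell type the differences were not tested, and all 4 values use the 3 hour library of ES cells. Its share of chromosome Y (0.112%) was near that found in ES cells with anti-MacroH2A2 and HA-H3.3 (0.0673% to 0.102%) and above that of the other HA-Macro libraries of ES cells (0.0219% to 0.0244%). At 6 hours the body of Zfhx3 stood at -0.04 in ES cells and -0.48 in MEFs, and that of Gli2 at -0.16 and -0.83, with the same sign in both cell types. The step at the start of Zfhx3 also had 1 sign at 6 hours, at -0.43 in ES cells and -0.90 in MEFs. The step at the end of Gli2 kept opposite signs at 6 hours. It was -0.36 (-0.56 to -0.16) in ES cells, short of the limit of 0.5, and 0.84 (0.60 to 1.09) in MEFs.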

How the results depend on the processing

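Of 76 counts recomputed under an alternative, 70 stayed within 1.5 times the reported count. Only the size of a count was compared, so the genes called could change within it. They did so after correction for G and C content at 12 hours against no Dox and for total MacroH2A2 between the cell types. With 6 hours standing in for 3 hours, 1 in place of 4 bodies (Nfat5) was lower at 12 hours in ES cells, and 1 in place of 4 (Gli2) in the ratio of body to flanks. With a fold of 0.5 on the log2 scale the count went to 0 for 12 against 6 hours, to 1 for 12 hours against no Dox and to 0 for HA-H3.3, which also went to 0 after correction for G and C content. The value of Zfhx3 at 12 hours against no Dox reversed to -0.087 under that correction, where Clasp1 was at -0.35 and Gli2 at -0.37. The cause was not tested. Of 220 values of single genes, 197 kept their direction and call. Pairs of a gene and a library with an edge numbered 39 of 44, and 36 to 44 under the alternatives; the 4 falls at gene starts in MEFs at 12 hours were found under all of those run and the rises at gene ends in 3 or 4 genes. Division by the no-Dox library leaves ratios of ES hours as they are and was not run for them. No paired analysis was possible because the labels give no replicate numbers and each condition has 1 library; hours of Dox are conditions and were not used as replicates. Depth limits the promoters, where HA-Macro counts in MEFs were 0 to 11.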

Other observations

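A window of Clasp1 centred 197.5 kb from its start held 0 midpoints in the HA-H3.3 library at 3 hours and in both anti-MacroH2A2 libraries and 2 in the HA-H3.3 library at 6 hours, while the 7 HA-Macro libraries held 21 to 32 there, the one without Dox 27. The window at the end of Gli2, centred at 217.5 kb, held 10.6 p.p.m. per 5 kb for total MacroH2A2 in ES cells and 4.86 in MEFs, and 3.98 for HA-Macro in ES cells without Dox. Both windows were picked out after their values had been seen.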
